A study of Homo sapiens with 5 samples.

Results

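The genes described here are the transcription factor ATF4, genes it is known to switch on when amino acids run short, and genes for cytosolic aminoacyl-tRNA synthetases. They were taken from a list of 42 gene names, of which 41 had a row among the 16677 genes of the count table; CBS had none and was not analysed here. Of the 41, 28 are ATF4 and its targets and 13 are synthetases, and all 41 passed the filter on low counts. Messenger RNA was sequenced from 5 libraries of the HEK293 line, established from human embryonic kidney, grown under basal conditions with no treatment. The control group holds 2 wild-type libraries and the other group holds 3 libraries with rs11607019, a T-to-C substitution in SIRT3, which encodes a mitochondrial deacetylase. The labels name no clone, passage or batch, so p-values measure only the spread between these libraries. Whether the libraries are technical repeats or separate cultures is not stated. The medians of some chromosomes differed between libraries of the same genotype, as given below, and the source of the spread was not tested.

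When amino acids are scarce or another stress reaches the cell, kinases phosphorylate the initiation factor eIF2, general protein synthesis slows and the ATF4 messenger RNA is translated more. ATF4 pairs with C/EBP proteins on a composite DNA element and raises genes that make, import and charge amino acids. Some of its targets, among them PPP1R15A and TRIB3, act back to end the response. Because much of the control lies in translation, the level of ATF4 messenger RNA is not the level of ATF4 protein, which was not analysed here.

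Library totals ran from 17122569 to 17596084 counts, with TMM factors from 0.983 to 1.01. Across the 16310 genes tested with edgeR's quasi-likelihood test, 0% reached an adjusted p under 0.05, 7.62% had an unadjusted p under 0.05, and the groups did not overlap at 24.8%. Of 4 genes chosen as marks of HEK293, VIM and PAX2 had rows, at 328 to 618 CPM (normalised counts scaled to a common library size) and 9.94 to 22.0 CPM, while NEFL and NEFM had no row. Of 13 marks of liver, blood, red cell and fibroblast types, COL1A1 alone had a row, at 28.4 to 46.3 CPM.

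The composite element on which ATF4 pairs with C/EBP proteins is shown first. The RefSeq promoter windows (GRCh38.p14, 250 bases before to 50 bases after a start) were searched for TGATGNAA on either strand, where the other strand reads TTNCATCA. Windows were at hand for 33 of the 41 genes, several of them with more than 1 start. The letters occurred in 14 of the 33 genes (42.4%), against 2.63% of the 10934 genes of the count table that had a window and 4.46% of all 27305 genes with one. Among the synthetases the share was 7 of 10 (70%), and among ATF4 and its targets it was 7 of 23 (30.4%). The other 19 of the 33 genes held no match. The genes were listed for their known part in the ATF4 response, so the higher share is not independent of that choice. A match is a run of letters and not a measured binding site.

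The matches in the 7 synthetase promoters are given with up to 10 bases on either side, read along the gene's strand, with the match in capitals. The same 8 letters, on the strand opposite to the gene or along it, stand in 6 of the 7, and GARS1 differs at the free position.

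AARS1: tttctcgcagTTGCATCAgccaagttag
CARS1: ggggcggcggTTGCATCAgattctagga
GARS1: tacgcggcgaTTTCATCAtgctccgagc
IARS1: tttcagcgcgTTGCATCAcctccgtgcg
MARS1: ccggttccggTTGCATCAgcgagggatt
NARS1: ctacgctctcTGATGCAAcgccggaatc
TARS1: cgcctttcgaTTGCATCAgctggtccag

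The same stretch is given for the 7 matches among ATF4's other targets, with the match in capitals. CHAC1, CEBPG, SLC1A4 and SLC1A5 hold the letters seen in most of the synthetases, whereas ASNS, SLC7A1 and SLC3A2 hold another base at the free position.

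ASNS: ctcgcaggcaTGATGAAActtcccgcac
CEBPG: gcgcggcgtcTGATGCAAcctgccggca
CHAC1: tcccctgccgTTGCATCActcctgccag
SLC1A4: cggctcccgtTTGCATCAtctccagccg
SLC1A5: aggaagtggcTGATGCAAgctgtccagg
SLC3A2: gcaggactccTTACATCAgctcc
SLC7A1: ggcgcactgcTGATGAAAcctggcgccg

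Matches lay close to a start in most genes, and each distance is to the start whose window held the match. The further windows of ASNS, CARS1, CEBPG, GARS1, SLC1A4, SLC1A5, SLC3A2 and TARS1, at other starts, held no match. The match began 2 bases before the start in CARS1, 4 before in MARS1, 7 before in SLC1A4, 13 before in IARS1 and 33 before in GARS1. It began at base 3 of the transcript in TARS1, base 8 in SLC7A1, base 15 in NARS1 and base 38 in SLC3A2. In CHAC1 and AARS1 it lay farther upstream, 209 and 187 bases before the start. The promoter windows of IARS1 (chr9:92293648-92293947, reverse strand) and CHAC1 (chr15:40953221-40953520, forward strand) are given whole, since these genes gave the smallest unadjusted p and the widest spread over libraries among the members that hold a match.

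IARS1: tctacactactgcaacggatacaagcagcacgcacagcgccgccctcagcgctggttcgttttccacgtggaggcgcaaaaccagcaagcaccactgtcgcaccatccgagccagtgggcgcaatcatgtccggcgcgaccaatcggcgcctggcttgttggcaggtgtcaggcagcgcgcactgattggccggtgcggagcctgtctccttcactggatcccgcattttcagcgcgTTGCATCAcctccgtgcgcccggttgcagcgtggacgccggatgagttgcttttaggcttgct
CHAC1: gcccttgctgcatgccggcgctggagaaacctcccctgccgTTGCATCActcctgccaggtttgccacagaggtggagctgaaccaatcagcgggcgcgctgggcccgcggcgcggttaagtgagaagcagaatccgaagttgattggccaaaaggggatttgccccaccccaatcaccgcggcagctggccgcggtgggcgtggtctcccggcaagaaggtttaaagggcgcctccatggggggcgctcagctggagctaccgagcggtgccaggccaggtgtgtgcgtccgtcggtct

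The 41 genes were expressed over a wide range. Per kilobase of merged exon, ATF4 had the highest mean level over the 5 libraries, 170 ± 33.5 CPM per kilobase (SD, n = 5), and SLC1A5, a glutamine carrier, followed with 153 ± 15.6. PSAT1 stood at 91.0 ± 18.9 and EIF4EBP1 at 84.5 ± 15.3 CPM per kilobase, a difference within their spread. Synthetases lay between 7.20 ± 1.40 for CARS1 and 75.6 ± 11.2 CPM per kilobase for VARS1. The lowest levels were those of NUPR1, at 0.664 ± 0.215, and ASNS, at 0.889 ± 0.121 CPM per kilobase. ASNS encodes asparagine synthetase, a classical ATF4 target. In GENCODE release 29 a transcript of the same strand, AC079781.5, covers 44.6% of the merged exon bases of ASNS, so how reads in shared exons were assigned bears on this level and is not given in the sources used here.

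No member passed an adjusted p of 0.05 with edgeR (0 of 41, background 0%). At an unadjusted p under 0.05 there were 4 of 41 (9.76%), against 7.62% of all tested genes: IARS1, PSAT1 and VARS1 were higher in the variant and SLC7A11 was lower. The groups did not overlap at 7 of 41 (17.1%), against 24.8% of all tested genes. The median log2 fold change of variant against wild type was 0.003 over ATF4 and its targets, with 15 genes higher and 13 lower, and −0.01 over the synthetases, with 6 higher and 7 lower. Over all tested genes it was 0.003. Without variant 3 the count was 8 of 41 (19.5%), where CHAC1, DDIT3, PSPH and WARS1 joined the 4 genes, and the share of all genes tested in that fit was 10%. In each fit that left out another library it was 3 (7.32%), against 3.34% to 8.73% of all genes. The Wald test of DESeq2 gave 1 member an adjusted p under 0.05, IARS1, where 0.213% of the 15045 genes with an adjusted p were called, and limma-voom gave 0. Each tool gave 5 members an unadjusted p under 0.05 (12.2%), against 7.4% of all genes in DESeq2 and 7.19% in limma-voom.

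**Figure D1:**
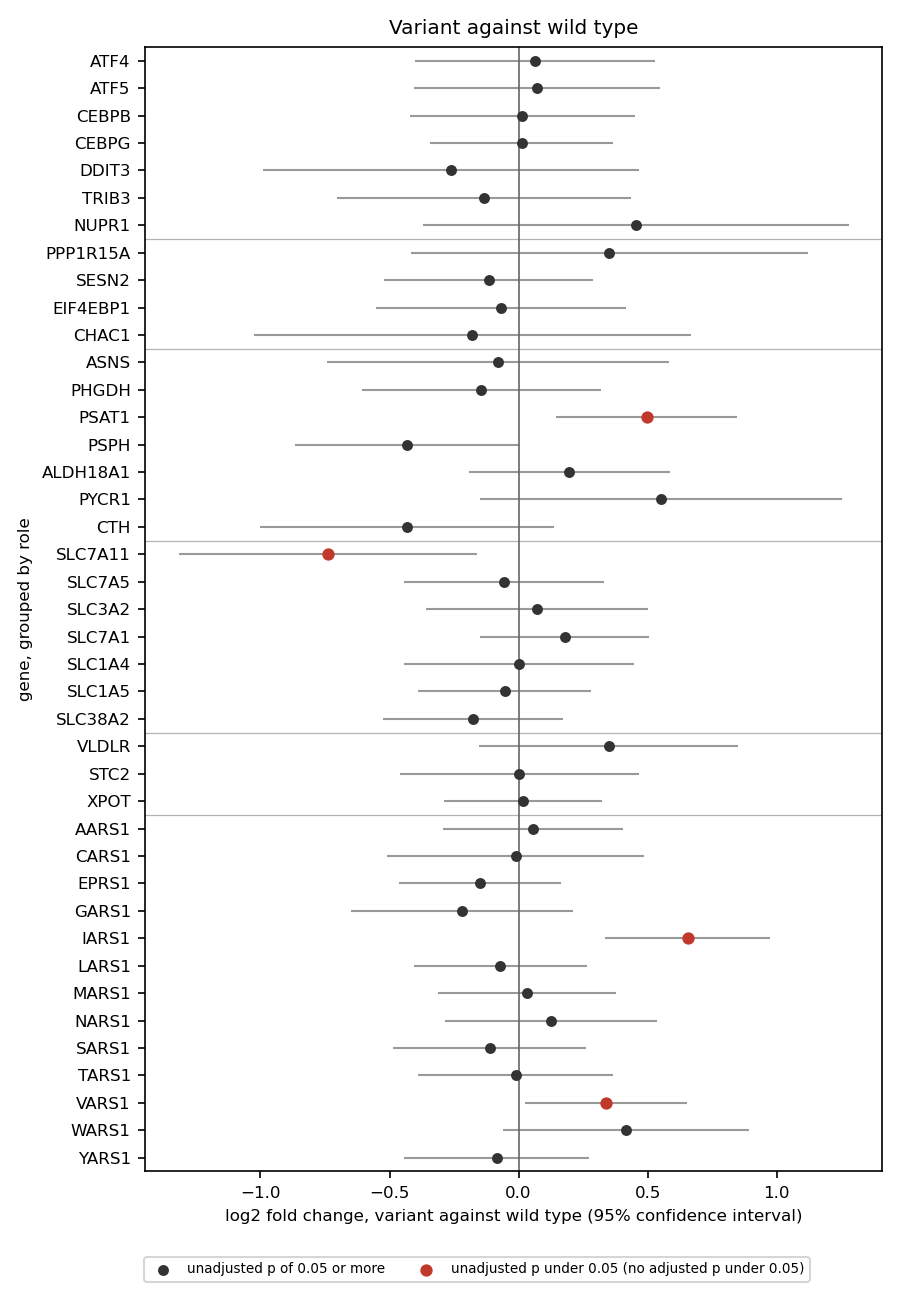
Log2 fold change of variant (n = 3) against wild type (n = 2) for the 41 genes, by role, with 95% confidence intervals from edgeR's quasi-likelihood fit; red points have an unadjusted p under 0.05 and none has an adjusted p under 0.05. Most intervals span 0, and IARS1, PSAT1, VARS1 and SLC7A11 do not.

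Among the transcription factors, ATF4 (ENSG00000128272, chromosome 22, 39519695 to 39522685) stood at 350 and 484 CPM in wild-type 1 and wild-type 2, and at 418, 348 and 541 CPM in variant 1, variant 2 and variant 3. The wild-type libraries lay within the range of the variant libraries, which held both the lowest and the highest value. The group means were 417 ± 94.7 CPM (SD, n = 2) and 436 ± 97.5 CPM (SD, n = 3), a log2 fold change of 0.06 (SE 0.21, 95% confidence interval −0.40 to 0.53) (edgeR adjusted p = 0.952). The sign turned without variant 3 (−0.12) and without wild-type 1 (−0.15).

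DDIT3, which encodes the stress factor CHOP, had 20.7 and 28.1 CPM in wild type, against 13.8, 16.6 and 30.7 CPM in the variant. Variant 1 was lowest and variant 3 highest, so the groups overlapped, and the log2 fold change was −0.26 (SE 0.33) (edgeR adjusted p = 0.858). It was −0.69 without variant 3 and −0.05 without variant 1. DDIT3 shares 355 exonic bases (27.2% of its own) with MARS1 on the opposite strand, and whether the counts used the strand is not stated.

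TRIB3, a pseudokinase that restrains ATF4, stood at 69.1 and 127 CPM in wild-type 1 and wild-type 2 and at 83.9, 76.5 and 107 CPM in the variant libraries. The gap between the wild-type libraries thus enclosed all 3 variant values. Its log2 fold change of −0.14 became 0.37 without wild-type 2. NUPR1, a small chromatin-associated stress protein, stood at 2.86 and 3.31 CPM in wild type and at 2.54, 4.99 and 5.14 CPM in the variant, with variant 1 lowest of all. Its log2 fold change of 0.46 was 0.72 without variant 1 and 0.29 without variant 3. CEBPB, CEBPG and ATF5 had log2 fold changes of 0.015, 0.012 and 0.07. CEBPB lay between 16.1 and 18.5 CPM and CEBPG, a C/EBP partner of ATF4, between 226 and 301 CPM. ATF5, a relative of ATF4 that is likewise under translational control, lay between 57.5 and 86.6 CPM. ATF5 shares 21.2% of its exonic bases with NUP62 on the opposite strand.

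The 4 genes that dampen the response or act downstream of it were each highest in variant 3. PPP1R15A, the regulatory subunit that brings a phosphatase to eIF2, stood at 72.7 and 116 CPM in wild type and at 103, 79.2 and 179 CPM in the variant. Variant 3 stood above each other library, and wild-type 1 was lowest. The log2 fold change was 0.35 (SE 0.34) (edgeR adjusted p = 0.812), and −0.05 without variant 3.

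CHAC1, which breaks down glutathione, had the widest spread of the 4, with 12.5 and 19.2 CPM in wild type and 8.55, 11.5 and 22.0 CPM in the variant. The highest library was 2.58 times the lowest, and both were variant libraries. Its log2 fold change was −0.18 (SE 0.38) (edgeR adjusted p = 0.918), −0.66 without variant 3, 0.08 without variant 1 and 0.16 without wild-type 2. SESN2, a leucine sensor that restrains mTORC1, stood at 90.9 and 104 CPM in wild type and at 74.8, 88.9 and 106 CPM in the variant. EIF4EBP1, which blocks cap-dependent initiation, lay between 64.6 CPM in variant 1 and 109 CPM in variant 3.

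**Figure D2:**
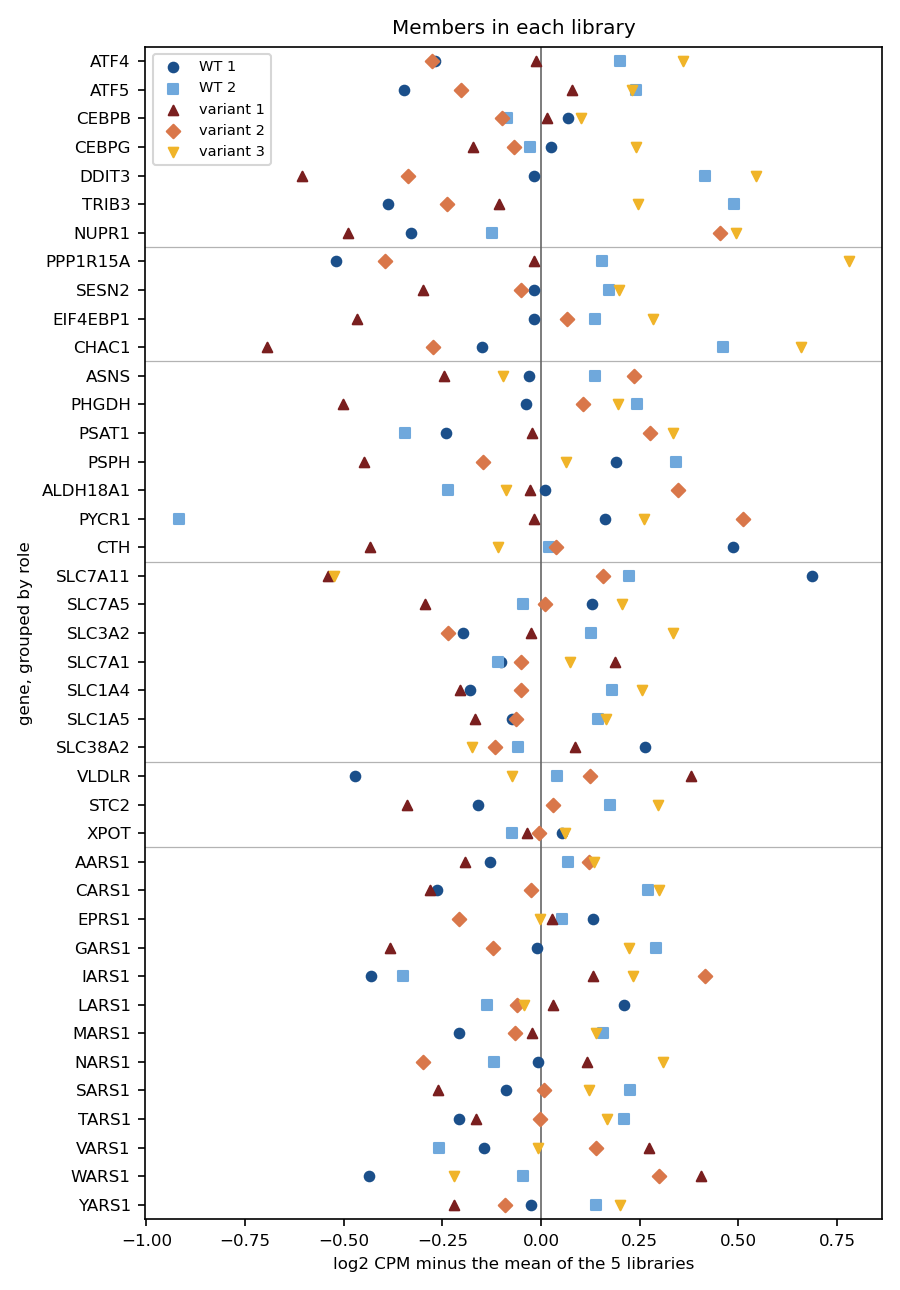
Log2 CPM of each of the 41 genes minus its mean over the 5 libraries, grouped by role; each point is a library, blue for wild type and red to yellow for variant. Variant 3 (yellow triangles) lies rightmost at 20 genes and variant 1 (dark red triangles) leftmost at 20.

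Among enzymes of amino acid synthesis, the 3 enzymes of the serine pathway differed in direction. PSAT1 (ENSG00000135069, chromosome 9, 78297143 to 78330093), the aminotransferase of that pathway, stood at 165 and 154 CPM in wild type and at 193, 237 and 246 CPM in the variant. All 3 variant libraries lay above both wild-type libraries. The log2 fold change was 0.50 (SE 0.16, 95% confidence interval 0.15 to 0.85). After GC and length correction it was 0.66. EdgeR's quasi-likelihood test gave PSAT1 an unadjusted p of 0.0106 and an adjusted p of 0.616. The adjusted p ran from 0.336 to 0.998 over the alternatives.

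PSPH, the phosphatase that completes serine synthesis, stood at 44.4 and 49.3 CPM in wild type and at 28.4, 35.1 and 40.6 CPM in the variant. All 3 variant libraries lay below both wild-type libraries, with a log2 fold change of −0.43 (SE 0.19) (edgeR adjusted p = 0.657). PHGDH, the dehydrogenase that opens the pathway, lay between 286 CPM in variant 1 and 480 CPM in wild-type 2, with overlapping groups. PYCR1, a mitochondrial enzyme of proline synthesis, stood at 21.2 and 9.98 CPM in wild type and at 18.7, 27.1 and 22.8 CPM in the variant. Wild-type 2 alone was low, and without it the log2 fold change of 0.55 (SE 0.31) fell to 0.11, while it was 1.20 without wild-type 1. PYCR1 shares 14.1% of its exonic bases with MYADML2 on the same strand and 15.6% with AC145207.4 on the opposite strand.

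ALDH18A1, which acts before PYCR1 in proline synthesis, lay between 189 and 283 CPM. CTH, which makes cysteine from cystathionine, lay between 7.92 and 15.1 CPM. Variant 1 was the lowest library for ASNS, PHGDH, PSPH and CTH.

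The transporters held the lowest log2 fold change of all members. SLC7A11 (ENSG00000151012, chromosome 4, 138164097 to 138242349), the cystine carrier of system xc-, stood at 42.8 and 31.0 CPM in wild type and at 18.2, 29.6 and 18.4 CPM in the variant. The variant libraries all lay below the wild-type ones, but variant 2 came close to wild-type 2. The group means were 36.9 ± 8.35 CPM (SD, n = 2) and 22.1 ± 6.53 CPM (SD, n = 3). The log2 fold change was −0.74 (SE 0.26, 95% confidence interval −1.32 to −0.16). The unadjusted p was 0.0173 and the adjusted p 0.616 with edgeR's quasi-likelihood test. Over the alternatives the log2 fold change ran from −1.01 without variant 2 to −0.49 without wild-type 1, and the adjusted p from 0.368 to 0.998. It was −0.55 after GC and length correction, and the GC content of its longest transcript, 35.4%, is the lowest of the members.

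SLC3A2, the heavy chain that partners SLC7A11 and SLC7A5, lay between 182 CPM in variant 2 and 270 CPM in variant 3. SLC7A5, the light chain for large neutral amino acids, lay between 143 CPM in variant 1 and 202 CPM in variant 3. SLC7A1, a carrier of cationic amino acids, stood at 130 CPM in both wild-type libraries and at 159, 135 and 147 CPM in the variant. Its groups did not overlap, but the log2 fold change was 0.18 (SE 0.15) (edgeR adjusted p = 0.765), and 0.02 after GC and length correction.

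SLC38A2, a sodium-coupled carrier of neutral amino acids, stood at 318 and 255 CPM in wild type and at 281, 244 and 235 CPM in the variant, with overlapping groups. Its log2 fold change of −0.18 was −0.007 without wild-type 1 and −0.33 without wild-type 2. SLC1A4 and SLC1A5, exchangers of neutral amino acids, were both highest in variant 3 and lowest in variant 1, at 57.7 and 41.9 CPM for SLC1A4 and at 570 and 453 CPM for SLC1A5.

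Of the 3 remaining targets, VLDLR, a lipoprotein receptor, stood at 21.3 and 30.4 CPM in wild type and at 38.5, 32.2 and 28.1 CPM in the variant. Variant 3 lay below wild-type 2, so the groups overlapped, and the log2 fold change was 0.35 (SE 0.22) (edgeR adjusted p = 0.720). It was 0.11 without wild-type 1 and 0.63 without wild-type 2. STC2, a secreted glycoprotein, stood at 91.8 and 116 CPM in wild type and at 81.0, 105 and 126 CPM in the variant. XPOT, which exports tRNA from the nucleus, stood at 189 and 173 CPM in wild type and at 178, 182 and 190 CPM in the variant. XPOT had the narrowest range of the members, with the highest library 1.10 times the lowest.

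Synthetases join amino acids to their tRNAs. IARS1 (ENSG00000196305, chromosome 9, 92210207 to 92293756), which charges isoleucine tRNA, had the smallest p of all members. It stood at 302 and 320 CPM in wild type and at 446, 544 and 479 CPM in the variant. All 3 variant libraries lay clearly above both wild-type libraries, and the group means were 311 ± 12.5 CPM (SD, n = 2) and 489 ± 49.7 CPM (SD, n = 3). The log2 fold change was 0.66 (SE 0.14, 95% confidence interval 0.34 to 0.97), a fold of 1.57. The unadjusted p of 0.00112 ranked 25 among 16310 genes, and the adjusted p was 0.616 in edgeR's test. In the Wald test of DESeq2 the adjusted p was 0.0496, the lowest value over the alternatives, and the highest was 0.998. The log2 fold change kept its sign in all 13 alternatives, between 0.57 and 0.72, and was 0.69 after GC and length correction.

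VARS1 (ENSG00000204394, chromosome 6, 31777518 to 31795953), which charges valine tRNA, stood at 412 and 381 CPM in wild type and at 551, 501 and 453 CPM in the variant. The groups did not overlap, with a log2 fold change of 0.34 (SE 0.14), an unadjusted p of 0.0377 (edgeR adjusted p = 0.632). After GC and length correction it was 0.18. WARS1, which charges tryptophan tRNA, stood at 99.4 and 130 CPM in wild type and at 178, 166 and 116 CPM in the variant. Variant 3 lay between the wild-type libraries, so the groups overlapped, and the log2 fold change was 0.42 (SE 0.21) (edgeR adjusted p = 0.670). It was 0.23 without wild-type 1 and 0.62 without wild-type 2.

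The other 10 synthetases had log2 fold changes between −0.22 for GARS1 and 0.13 for NARS1. EPRS1, which charges both glutamate and proline tRNAs, was the only one of these whose groups did not overlap, and it lay between 216 CPM in variant 2 and 273 CPM in wild-type 1. CARS1, GARS1, TARS1, SARS1 and YARS1 shared an order of libraries in which wild-type 2 and variant 3 were the highest pair, as did MARS1. For CARS1 these were 86.0 and 87.7 CPM, against 58.5 to 70.0 CPM in the other libraries. AARS1 was highest in variant 2 and variant 3, at 286 and 288 CPM, and LARS1 was highest in wild-type 1, at 280 CPM.

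Libraries of the same genotype also differed from each other. Variant 3 was the highest library at 20 of the 41 members (48.8%), against 18.9% of all tested genes, and variant 1 was the lowest at 20 (48.8%), against 22.0%. On the log2 scale and against the 5-library mean, the median member stood at −0.08 and 0.14 for wild-type 1 and 2, and at −0.17, −0.05 and 0.20 for variants 1 to 3, where the median of all tested genes lay between −0.006 and 0.005. The cell markers also differed between libraries: VIM and PAX2 were both highest in variant 3, at 0.55 and 0.50. COL1A1, the fibroblast marker with a row, was at −0.38 and 0.33 in wild type and at −0.36, 0.13 and 0.28 in the variant, while DCN and LUM had no row. The part of these differences in the members' values was not tested. The 4 feedback genes spread most, from −0.38 in variant 1 to 0.47 in variant 3. The 7 regulators ran from −0.27 in wild-type 1 to 0.25 in variant 3, and the synthetases from −0.13 in wild-type 1 to 0.14 in variant 3. The 2 highest libraries for the median member therefore belonged to different genotypes.

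For the median member the differences between libraries were smaller once GC content and length were taken into account. After GC and length correction the median member was at −0.02 and 0.09 for wild-type 1 and 2, and at −0.15, −0.06 and 0.10 for variants 1 to 3. Variant 3 was then the highest library at 16 members, against 18.8% of all genes, and wild-type 2 at 10, against 16.4%. Variant 1 was the lowest at 20, against 22.8%, and variant 2 at 12, against 19.6%, where it had been the lowest at 5 before the correction. Before the correction, the 14 members with a TGATGNAA match had medians from −0.17 in variant 1 to 0.23 in variant 3, and the 19 members with a window and no match had medians from −0.04 in wild-type 1 to 0.19 in variant 3. After it, the medians ran from −0.21 in variant 1 to 0.23 in variant 3 with a match, and from −0.06 in variant 2 to 0.09 in wild-type 2 and variant 3 without one. The correction thus narrowed the range of the set without a match and not that of the set with one. The difference between these sets was not tested.

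**Figure D3:**
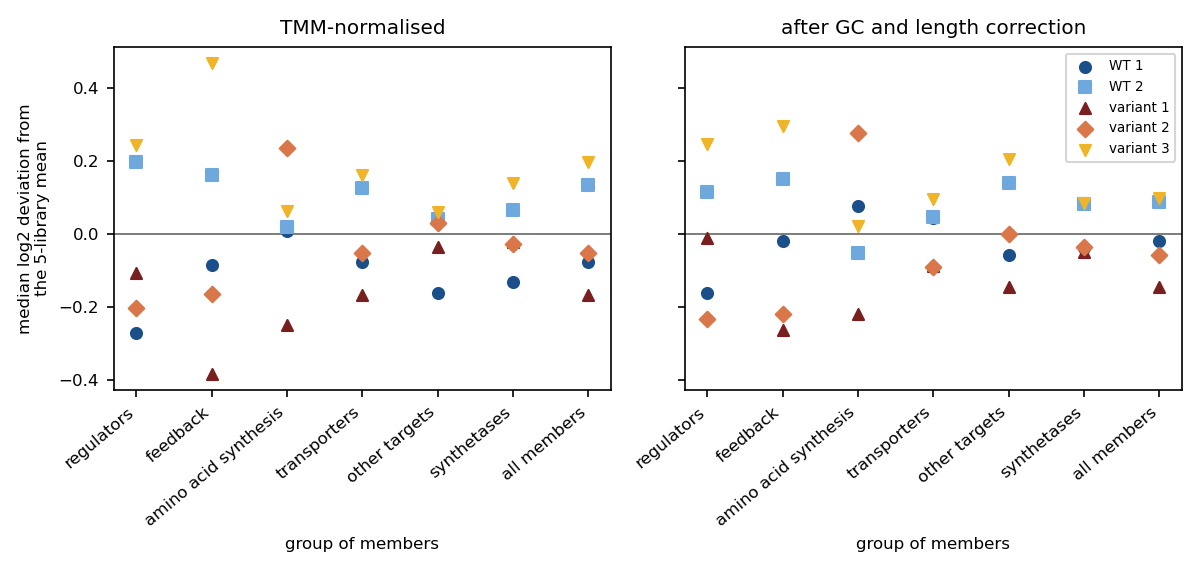
Median log2 deviation from the 5-library mean for each group of members and for all 41, per library, before (left) and after (right) GC and length correction. Variant 3 and variant 1 lie at opposite ends for the feedback genes, at 0.47 and −0.38 before the correction and at 0.30 and −0.26 after it.

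Several members varied over libraries together with the rest of their chromosome, a comparison made after their values were seen. On 6 of the 20 chromosomes that hold members, the median deviation of the other genes differed by at least 0.3 on the log2 scale between libraries, and these hold 9 members. On chromosome 9, which holds IARS1, PSAT1 and VLDLR, the median log2 fold change of 430 other genes was 0.36. The median deviations there were −0.21 and −0.19 in wild type and −0.06, 0.28 and 0.22 in the variant. In the same order PSAT1 stood at −0.24, −0.34, −0.02, 0.28 and 0.33, and IARS1 at −0.43, −0.35, 0.13, 0.42 and 0.23. IARS1 had the chromosome's sign in 4 of 5 libraries and lay farther from the mean. Set against the chromosome median, the log2 fold change was 0.30 for IARS1 and 0.14 for PSAT1.

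ATF4 followed chromosome 22 in the same way. It stood at −0.27, 0.20, −0.01, −0.28 and 0.36 in wild-type 1, wild-type 2 and variants 1 to 3, and the median of 275 other genes of that chromosome stood at −0.27, 0.18, 0.11, −0.23 and 0.21. WARS1 and NARS1 had the sign of their chromosomes, 14 and 18, in all 5 libraries. The median log2 fold change of 367 other genes on chromosome 14 was 0.31, and that of WARS1 was 0.42. VARS1 stood at 0.34 beside 0.13 for 587 other genes on chromosome 6, whose medians spread by less than 0.3.

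TRIB3 and CEBPB did not follow chromosome 20, which was highest in variant 1 at 0.39, where TRIB3 stood at −0.11 and CEBPB at 0.02. VLDLR did not follow chromosome 9 by library, although its log2 fold change of 0.35 was near the chromosome median. It stood at −0.47, 0.04, 0.38, 0.12 and −0.07 and had the chromosome's sign in 2 of 5 libraries. SLC1A4 did not follow chromosome 2, which was lowest in variant 3 at −0.27, where SLC1A4 stood at 0.26. The number of copies of each chromosome was not analysed here, and its part in these values was not tested.

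**Figure D4:**
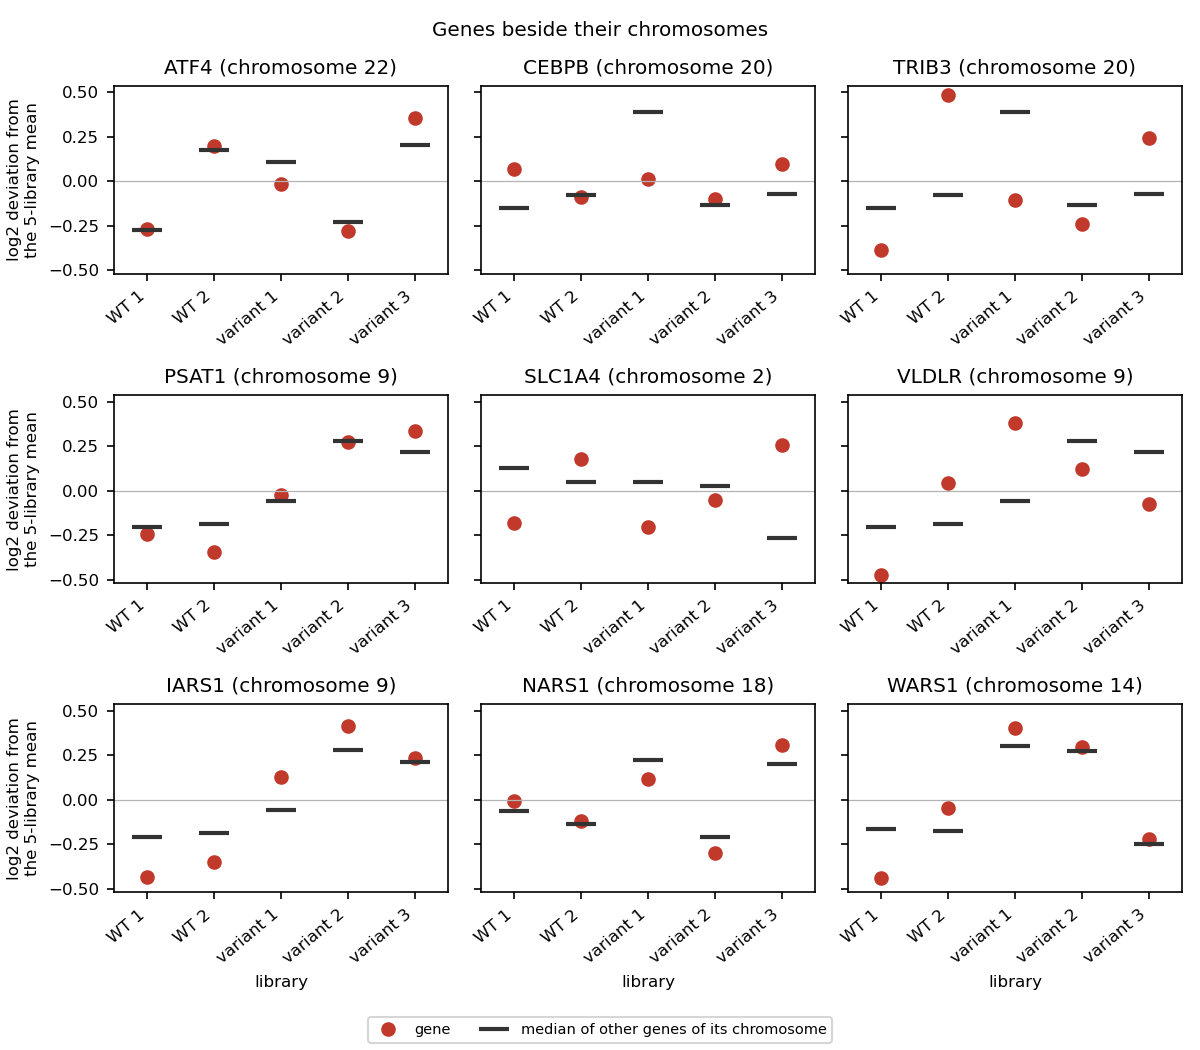
Log2 deviation from the 5-library mean for the 9 members on chromosomes whose library medians differ by at least 0.3 (red points), beside the median of the other genes of that chromosome with a mean log2 CPM above 3 (bars). ATF4, PSAT1, NARS1 and WARS1 lie near the bars in most libraries, whereas TRIB3, SLC1A4 and VLDLR do not. IARS1 has the sign of the bar in 4 of 5 libraries but lies farther from the mean than the bar.

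Genes around the members were examined from lists, and edgeR gave none of them an adjusted p under 0.05. In the same test 7.62% of all tested genes had an unadjusted p under 0.05. Of 7 genes for kinases that phosphorylate eIF2 and proteins that act before them, 0 had an unadjusted p under 0.05, with a median log2 fold change of −0.06. The smallest p values were those of EIF2AK2 (PKR), at −0.29 (SE 0.19), and GCN1, which activates the amino acid sensing kinase EIF2AK4, at 0.19 (SE 0.14). Of 9 genes for eIF2, its exchange factor eIF2B and a phosphatase subunit, 0 had an unadjusted p under 0.05, with EIF2B1 at −0.28 (SE 0.16) and EIF2B2 at 0.30 (SE 0.22).

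Over 16 further ATF4 targets with a row the median was 0.14. In edgeR's test 1 of them (6.25%) had an unadjusted p under 0.05, against 7.62% of all tested genes. This was HERPUD1, a component of endoplasmic reticulum degradation, with 52.6 and 74.6 CPM in wild type and 35.9, 40.2 and 55.6 CPM in the variant. Its groups overlapped. CCPG1, a receptor for autophagy of that compartment, was next, with a log2 fold change of −0.45 (SE 0.20). FGF21, INHBE and BCAT1 had no row and were not analysed here.

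The 7 cytosolic synthetase genes outside the list and 3 scaffold genes of the multi-synthetase complex had a median of −0.175. In edgeR's test 1 of these 10 genes (10%) had an unadjusted p under 0.05, against 7.62% of all tested genes. AIMP1, a scaffold of that complex, had an unadjusted p of 0.0224, with 78.4 and 72.4 CPM in wild type and 53.7, 53.6 and 61.0 CPM in the variant. The variant libraries were all lower, but the log2 fold change of −0.43 (SE 0.16) was −0.13 after GC and length correction. EEF1E1, another scaffold gene, was next at −0.48 (SE 0.26).

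Of 17 genes for mitochondrial synthetases, 3 (17.6%) had an unadjusted p under 0.05, against 7.62% of all tested genes, and the median was −0.003. AARS2, for alanine, was at 0.44 (SE 0.15) and FARS2, for phenylalanine, at 0.62 (SE 0.25). YARS2, for tyrosine, named after its value was seen, was at −0.47 (SE 0.19). Of 11 other amino acid transporters, 1 (9.09%) had an unadjusted p under 0.05, against 7.62% of all tested genes. SLC43A2, a carrier of large neutral amino acids, stood at 25.5 and 34.2 CPM in wild type and at 49.8, 41.3 and 49.9 CPM in the variant. Its groups did not overlap, with a log2 fold change of 0.65 (SE 0.20) (edgeR adjusted p = 0.616). SLC43A1, a related carrier, was next at 0.70 (SE 0.40).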

How the data were processed

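The authors deposited a table of read counts per Ensembl gene, whole numbers with no normalization, for 2 wild-type and 3 variant libraries. Per the labels' protocols, TRIzol was used to extract RNA, and strand-specific mRNA libraries were read as single ends of 50 bases. HISAT2, SAMtools, HTSeq and the build hg38 are named in the submitters' processing notes, and no role, version, annotation or strand setting is given in the sources used here. Every gene in the table has at least 3 counts in every library, so a gene silent in a library could not appear. Columns were tied to libraries through the library names in the labels. The name of variant 3 alone starts with the name of the cell line, for which no reason is given.

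The filterByExpr filter of edgeR, run by group, kept 16310 of 16677 (97.8%), and TMM factors scaled the libraries. The 5 libraries were compared with edgeR 4.0.16 (quasi-likelihood F test, robust) in R 4.3.3. P-values are two-sided and adjusted by Benjamini-Hochberg over the 16310 genes, and 0.05 was the threshold. CPM is the TMM-normalised count, and deviations use log2 CPM with a prior count of 2. Positions and exon lengths come from GENCODE release 29 on GRCh38. The test was also run on simulated counts, drawn independently for each gene and library with no chromosome-wide shifts. Its outcome is not reported here.

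The members, the lists and the roles were chosen with earlier results of these data known. Library values are given for ATF4, for the 3 members of each role with the smallest p, and for any member whose groups do not overlap and whose log2 fold change is 0.5 or more in size. Levels of a few other members are given as ranges. In each further list the 2 genes with the smallest p are named. The alternatives were RLE (DESeq2) and upper-quartile scaling, no filter on low counts, 10 or more counts in each library, DESeq2 1.42.0 (Wald test), limma-voom (limma 3.58.1), a block on replicate number, fits without each library, and a GC and length correction (GC content and length of the longest transcript) by splines with 5 degrees of freedom.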

Additional observations from a re-analysis of the deposited data

How the results depend on the processing

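Under the 13 alternatives, 68 of 78 summary values were kept. A count was kept if it was equal to the main count or similar in size. A median was kept if it moved by less than the replicate spread. The ATF4 log2 fold change was kept if its sign and its side of the threshold both stayed. DESeq2 called 32 genes and 1 member at an adjusted p under 0.05, where edgeR's test called 0 and 0. In the fits that each left out 1 library, the number of all genes called ran from 0 to 4 and that of members was 0. The number of members at an unadjusted p under 0.05 ran from 3 to 8. The ATF4 log2 fold change ran from −0.152 to 0.316, and the medians ran from −0.110 to 0.158 for the synthetases and from −0.148 to 0.072 for ATF4 and its targets. In the same fits the log2 fold change ran from −0.664 to 0.163 for CHAC1, from −0.508 to 0.369 for TRIB3, from −0.051 to 0.728 for PPP1R15A, from −0.249 to −0.000172 for SESN2, from −0.159 to 0.180 for STC2 and from −0.046 to 0.083 for XPOT. A lone wild-type library is assumed there to vary like the others. STC2 was also at −0.011 in limma-voom and at −0.097 after GC and length correction. Of the 22 members without library values by the naming rule, 18 changed sign at least once, in 46 of 286 values. The causes were not tested.

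The replicate numbers of the titles are shared by 2 libraries of each group. Deviations from the group means correlated at 0.154 for number 1 and at −0.209 for number 2 across 10864 genes. The deviations of the 2 wild-type libraries from their mean are equal and opposite, so the 2 correlations are not independent. They cannot decide whether the numbers pair the libraries. With the replicate block in edgeR, 8 members (19.5%, against 9.55% of all genes) had an unadjusted p under 0.05 and 0 an adjusted one. The log2 fold changes were −0.110 for ATF4, −0.025 for PPP1R15A, −0.162 for STC2 and −0.009 for XPOT. Variant 3 alone holds its replicate number, so the block takes it out of the group comparison. The block is therefore close to the fit without variant 3, where ATF4 was at −0.123, and is not a separate check. The common biological coefficient of variation, 19.8%, and the 5 libraries limit what can be detected.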

Other observations

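Single libraries stood apart at a few genes of amino acid metabolism, which are given here after their values were seen. ASS1, which makes argininosuccinate on the way to arginine, stood at 64.1 and 60.2 CPM in wild type, at 88.6 and 84.7 CPM in variant 2 and variant 3, and at 16.6 CPM in variant 1. Variant 1 was thus the lowest by a wide margin, and the log2 fold change between groups was 0.03. LARS2, the mitochondrial leucine synthetase, stood at 91.7 CPM in variant 1 and between 51.8 and 64.8 CPM in the other libraries. SLC43A1, an amino acid carrier, stood at 11.3 CPM in variant 3 and between 4.08 and 6.08 CPM in the other libraries.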
